A study of Caenorhabditis elegans with 2 samples.

Results

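The peaks described here are autosomal peaks from chromatin immunoprecipitation of tagged CEH-8 that lay in front of a gene on one side only. A peak of the deposited optimal IDR list was a member when it was not on X and its summit fell within 1000 bp in front of the start of a protein-coding gene on one strand, but not on both strands. The IDR list holds peaks kept by the irreproducible discovery rate, a measure of how alike peaks rank. The rule found 475 members among 1891 IDR peaks (25.1%), or among 1475 autosomal ones (32.2%). The rest of the autosomal peaks comprised 233 between divergent starts, 301 in introns, 305 in distal intergenic sequence, 137 in exons and 24 in non-coding RNA genes.

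Both samples were whole L1 larvae of Caenorhabditis elegans strain OP760, of 6 hours and mixed sex, synchronised by bleaching and starved. The strain carries unc-119(tm4063) and the transgene wgIs760, which holds ceh-8 joined to TY1, EGFP and 3xFLAG tags together with unc-119(+), the rescue marker. Chromatin was sonicated and precipitated with an anti-GFP antibody in 2 biological replicates. They form 1 group, and the study compares no conditions. The data come from 1 transgenic line that carries added copies of ceh-8 and from whole animals, in which strong binding in few cells and weak binding in many cannot be told apart.

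CEH-8 is a transcription factor with a homeodomain of the paired-like class, known from the RIA interneurons of the head. Homeodomains of this class bind DNA words with a TAAT core, alone or as an inverted pair. In C. elegans many transcripts are trans-spliced, so the annotated start of a gene often lies downstream of the place where transcription begins. A promoter with a gene on one side only has a direction, so the position and strand of what is in it can be read against that gene.

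Sequences at 9 members are printed to show what the summits looked like. They belong to the 3 strongest members in front of ribosomal protein genes and to the strongest members that held 4 of the DNA words tested below. Each runs 5′ to 3′ on the coding strand of the gene, from 50 bp before to 50 bp after the summit, on WBcel235 (ce11), from the RefSeq genome sequence. Capitals mark CCGCCC in rps-28 and inx-18, GAGAGA (here as TCTCTC, its reverse complement) in sec-61.G and hsp-1, and TAATTA in ddp-1. In Y73B6BL.29 and D1069.3 they mark TAAT and its reverse complement ATTA set 3 bases apart.
rpl-3 (chrIII:3867523-3867623, plus strand): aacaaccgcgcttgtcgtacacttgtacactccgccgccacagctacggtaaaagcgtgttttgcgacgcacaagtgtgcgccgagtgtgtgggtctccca
rpl-35 (chrIII:7854629-7854729, plus strand): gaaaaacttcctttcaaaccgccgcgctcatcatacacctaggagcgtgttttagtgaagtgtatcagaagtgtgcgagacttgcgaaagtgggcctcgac
rps-28 (chrIV:1659206-1659306, plus strand): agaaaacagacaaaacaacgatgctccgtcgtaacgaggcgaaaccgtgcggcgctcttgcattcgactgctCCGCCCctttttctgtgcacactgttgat
sec-61.G (chrV:10897312-10897412, minus strand): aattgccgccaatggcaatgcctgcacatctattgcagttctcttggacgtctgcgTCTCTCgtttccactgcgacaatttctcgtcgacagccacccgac
hsp-1 (chrIV:17278499-17278599, plus strand): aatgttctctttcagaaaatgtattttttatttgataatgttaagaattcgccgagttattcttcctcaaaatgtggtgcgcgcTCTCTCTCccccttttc
ddp-1 (chrIII:1859675-1859775, plus strand): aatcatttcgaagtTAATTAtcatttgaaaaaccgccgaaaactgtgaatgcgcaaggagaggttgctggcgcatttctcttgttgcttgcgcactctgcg
Y73B6BL.29 (chrIV:6321875-6321975, plus strand): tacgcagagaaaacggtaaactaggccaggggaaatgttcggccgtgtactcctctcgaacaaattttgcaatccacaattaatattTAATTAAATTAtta
D1069.3 (chrII:347905-348005, minus strand): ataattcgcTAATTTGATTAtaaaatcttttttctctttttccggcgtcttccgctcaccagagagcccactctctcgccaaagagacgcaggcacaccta
inx-18 (chrIV:605582-605682, plus strand): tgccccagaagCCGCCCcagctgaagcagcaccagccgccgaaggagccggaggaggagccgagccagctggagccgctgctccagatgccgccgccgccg

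The summits of rpl-3 and rpl-35 held none of the words marked in the others. The Y73B6BL.29 pair of TAAT words also contains TAATTA, and it lay at the downstream edge of the window rather than at its centre. The D1069.3 window also holds TCTCTC, which is not capitalised. The inx-18 window was 74.3% G + C and lay in a coding exon of another gene.

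The strongest member lay in front of a ribosomal protein gene, and the 20 strongest stood in front of genes of varied roles. Signal is the authors' value for each peak. The sources used here do not state its scale, so it served to rank peaks within a list. Members' signal ran between 88.0 and 1057, with a median of 139, and their ranks in the IDR list between 1 and 1890. The member in front of rpl-3, a gene for a large-subunit ribosomal protein, was the strongest peak of the whole list at 1057. It had 522 in replicate 1 (rank 4) and 543 in replicate 2 (rank 1), with the summit 281 bp from the start. The member in front of rpl-35, another large-subunit gene, had 364 in replicate 1 (rank 19) and 410.2 in replicate 2 (rank 8). The member in front of mrck-1, which encodes a protein kinase, had 398 in replicate 1 (rank 14) and 376 in replicate 2 (rank 9). All 3 therefore stood among the strongest peaks of each replicate taken alone.

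The member of cox-5A, a subunit of cytochrome c oxidase, had 296 in replicate 1 (rank 34) and 372 in replicate 2 (rank 10). The member of cdc-48.1, the AAA ATPase that extracts ubiquitylated proteins, had 316 in replicate 1 (rank 30) and 322 in replicate 2 (rank 22). The member of sec-61.G, a subunit of the protein translocation channel of the endoplasmic reticulum, had 260.3 in replicate 1 (rank 47) and 216 in replicate 2 (rank 49). These 3 had like ranks in both replicates. That of ntl-2, a subunit of the CCR4-NOT deadenylase complex, was less even, at 486 in replicate 1 (rank 6) and 172 in replicate 2 (rank 84). That of Y39A1A.9 differed most among the 20 strongest, at 515 in replicate 1 (rank 5) and 80.3 in replicate 2 (rank 559), and its window was 73.3% G + C.

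The other strong members stood in front of H41C03.3, of egg-5 (needed for the egg-to-embryo transition), of C47E8.4, of sqd-1 (an RNA-binding protein) and of egl-30 (the G-protein alpha subunit Gq). Below them came ddp-1, a small chaperone of mitochondrial protein import, then eelo-2, Y73B6BL.29, dld-1 (dihydrolipoamide dehydrogenase), F59C6.18, C07H6.2 and cbp-1, the CBP/p300 histone acetyltransferase. All of the 20 strongest were found in both replicates, by the definition given below. Their lowest rank was 121 in replicate 1 and 559 in replicate 2. Of the 20, 15 had a summit outside every protein-coding and non-coding RNA gene, with pseudogenes and piRNA genes not counted.

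Summits gathered close in front of the gene. Their median distance from the gene start was 280 bp (quartiles 155.5 and 534 bp, range 4 to 998 bp). In successive bins of 100 bp from the start upstream they numbered 61, 103, 86, 59, 35, 28, 22, 35, 20 and 26. The bins between 100 and 300 bp together held 189 members (39.8%), against 19.4% of all one-sided autosomal promoter sequence. Within 250 bp of the start lay 210 members (44.2%), against 26.5% of the 3950 weaker summits of the pooled list that met the same positional rule, and against 24.1% of the sequence. The distance limit of the rule bounds these values, but the rule does not use the position inside that limit.

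**Figure D1:**
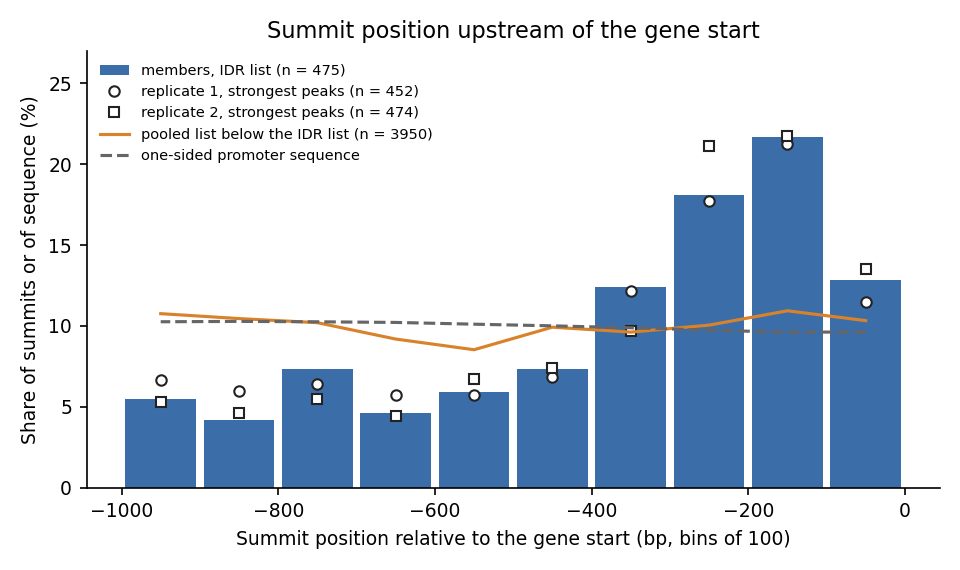
Share of summits in 100 bp bins upstream of the gene start (x axis, bp; y axis, %), for the 475 members (bars), for each replicate's strongest one-sided summits (circles and squares), for the 3950 weaker pooled summits (orange line) and for one-sided promoter sequence (dashed). The members and both replicates peak between 100 and 300 bp, where the weaker summits follow the sequence.

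Each replicate alone also had its strongest summits nearer the start than its weaker ones. Among as many of the strongest peaks as the IDR list holds, replicate 1 had 452 one-sided autosomal summits with a median of 297 bp, and 41.6% lay within 250 bp. Its 4049 weaker ones had a median of 487 bp, and 27.1% lay within 250 bp. Replicate 2 had 474 with a median of 266.5 bp and 46.2% within 250 bp, against 497 bp and 26.6% for its 3988 weaker ones. Ordered by signal, the strongest 159 members had a median of 263 bp, the next 159 of 288 bp and the weakest 157 of 312 bp. At the edge of the rule, the 26 members in the last 100 bp inside it had a median signal of 123.2. The 25 autosomal IDR summits in the next 100 bp beyond it had 119.03.

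Most members had a summit outside the genes counted here, which leave out pseudogenes and piRNA genes. That was so in 356 cases (74.9%). The summit lay in an intron of another gene in 38, in a coding exon in 23, in another exon in 30 and in a non-coding RNA gene in 28. The gene lay on the plus strand for 247 members and on the minus strand for 228. The next gene upstream was taken as the nearest protein-coding gene wholly upstream of the start, so genes that overlap the start were passed over. It was on the same strand for 282 (59.4%), against 54.4% of the 17242 autosomal protein-coding genes. The median gap to that neighbour was 1386 bp for members and 1020 bp for all autosomal genes. These shares and gaps are descriptions, since the rule itself removes promoters with starts on both strands. For 67 members the summit lay beyond the gap, inside or past the neighbouring gene. A summit inside a gene that overlaps the start was measured against the neighbour beyond that gene. The 475 members stood in front of 469 genes, and 20 of them lay within 1000 bp of the starts of 2 genes on that strand.

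One-sided promoters held a larger share of strong peaks than of weak ones. One-sided promoter sequence makes up 17.3% of the autosomes. Of the 100 strongest pooled peaks, 28 of the 77 autosomal ones had a one-sided promoter summit (36.4%, exact 95% interval 25.7 to 48.1%). The share was 37.7% for the 100 strongest of replicate 1 and 36.8% for those of replicate 2. Past rank 5000 it lay between 16.2 and 18.1% in every band of all 3 lists, near the share of the sequence. The trait was not particular to one-sided promoters. Divergent promoters make up 1.67% of the autosomes. They held 25.97% of the autosomal peaks among the 100 strongest pooled ones, 16.88% in replicate 1 and 31.58% in replicate 2. In ranks 5001 to 10000 their share was 2.09% pooled, 2.39% in replicate 1 and 2.34% in replicate 2. Exact intervals here take each peak as an independent count and allow for no other error, and read depth is unknown from these files.

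**Figure D2:**
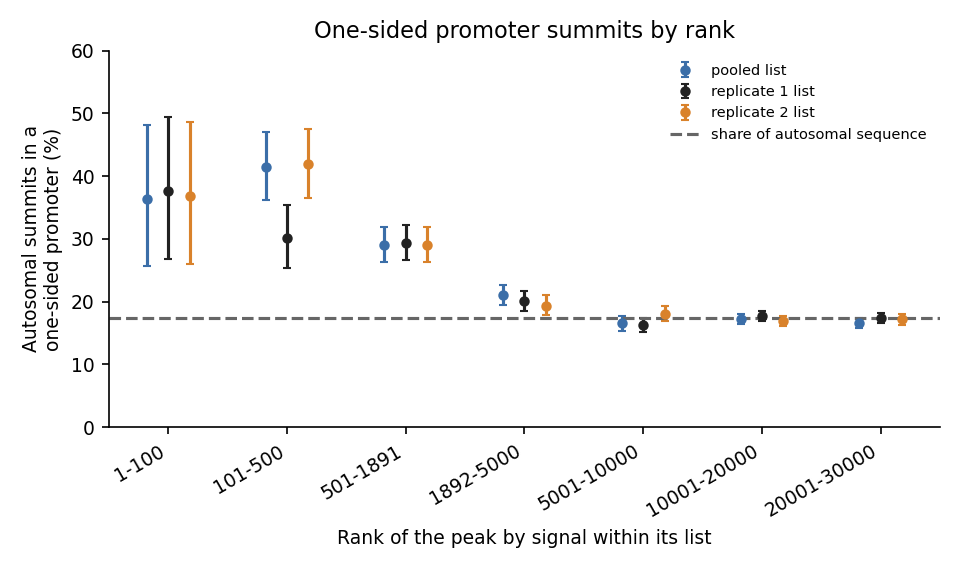
Share of autosomal summits that lay in a one-sided promoter (y axis, %) by rank of the peak within its list (x axis, bands), for the pooled list and both replicates, with exact 95% binomial intervals. The dashed line is the 17.3% of autosomal sequence that such promoters make up, which the weaker bands of every list meet.

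In strength, members stood above intronic and distal peaks, while no difference from divergent promoter peaks passed the test. Of the 475 members, 155 (32.6%) were among the 472 strongest IDR peaks, where the share over all autosomal IDR peaks was 25.8%. Divergent promoter peaks had 80 of 233 (34.3%), an odds ratio of 0.926 for members against them (95% interval 0.657 to 1.31, Fisher's exact two-sided test, adjusted p = 0.67). This interval does not show that they are alike. Intronic peaks had 65 of 301 (21.6%; odds ratio 1.76, 1.24 to 2.50, exact adjusted p = 0.0016). Distal peaks had 60 of 305 (19.7%; odds ratio 1.98, 1.39 to 2.83, exact adjusted p = 2.32e-04). P-values were adjusted over the 3 comparisons by Benjamini-Hochberg. Among the strongest peaks of replicate 1 alone neither of the last 2 differences passed, with odds ratios of 1.29 (exact adjusted p = 0.26) against intronic and 1.24 (exact adjusted p = 0.26) against distal peaks. With promoters of 2000 bp the odds ratios were 1.28 (exact adjusted p = 0.17) against intronic and 1.46 (exact adjusted p = 0.11) against distal peaks. Against divergent promoter peaks it was then 0.638, which passed (exact adjusted p = 0.0090).

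A peak is called found in both replicates where its summit lay no more than 200 bp from a summit among the 1891 strongest in each replicate's own list. That held for 317 of the 475 members (66.7%, exact 95% interval 62.3 to 71.0%), where the share over all autosomal IDR peaks was 57.8%. Of the rest, 75 were matched in replicate 1 alone, 74 in replicate 2 alone and 9 in neither. Divergent promoter peaks had 165 of 233 (70.8%; odds ratio of members against them 0.827, 0.578 to 1.18, Fisher's exact test, adjusted p = 0.30). Intronic peaks had 174 of 301 (57.8%; odds ratio 1.46, 1.07 to 1.99, exact adjusted p = 0.022). Distal peaks had 155 of 305 (50.8%; odds ratio 1.94, 1.43 to 2.64, exact adjusted p = 3.82e-05). With promoters of 2000 bp the odds ratio against intronic peaks was 1.14 (exact adjusted p = 0.40). Being found in both requires a high rank in each replicate. These differences were therefore not tested apart from those in strength.

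Among members, replication followed strength and position. Of the 100 strongest, 95 were found in both, and of the 100 weakest 9 were. Both measures use the signal of the same reads, so this is a description. Of the 344 members within 500 bp of the start 70.3% were found in both, against 57.3% of the 131 farther upstream. These shares include the coding-exon members described next, many of which lay beyond 500 bp. Position was not tested apart from them or from strength. A peak in each replicate's full list was present for 456 members, over which Spearman's rho of the 2 signals was 0.60. The replicates' summits lay a median of 7.5 bp (replicate 1) and 5 bp (replicate 2) from the pooled summit.

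Members in coding exons stood apart. Of these 23, only 2 were found in both replicates (8.70%), 17 were strong in replicate 1 alone, and 10 had no replicate 2 peak within 200 bp. Their median G + C was 66.3%, against 44.6% for members outside the genes counted above. The member of inx-18, a gap junction (innexin) gene, had 257 in replicate 1 (rank 48) and no replicate 2 peak. That of F42A6.6 had 230.3 in replicate 1 (rank 64) and 28.0 in replicate 2 (rank 9791). That of F47B8.4 had 203 in replicate 1 (rank 84) and 18.9 in replicate 2 (rank 29666). Such members were in the IDR list, which held the strongest pooled peaks, with little or no signal in replicate 2. Of the 134 members below 40% G + C, 61.9% were found in both, with 33 in replicate 2 alone and 16 in replicate 1 alone. The share was 64.4% of members at 40 to 45% and 77.0% of those at 45 to 50%. Those with 50 to 55% G + C were found in both in 79.7% of 69 cases. Those with 55% or more were found in both in 55.6% of 81, with 27 in replicate 1 alone and 9 in replicate 2 alone. These 81 include 14 coding-exon members, while the 69 at 50 to 55% include 1. The 2 coding-exon members found in both, sacm-1L and ran-5, had 40.6 and 41.6% G + C. The shares by G + C were not taken without coding-exon members. The part of base composition in this was not tested. Without coding-exon summits 69.7% of members were found in both.

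**Figure D3:**
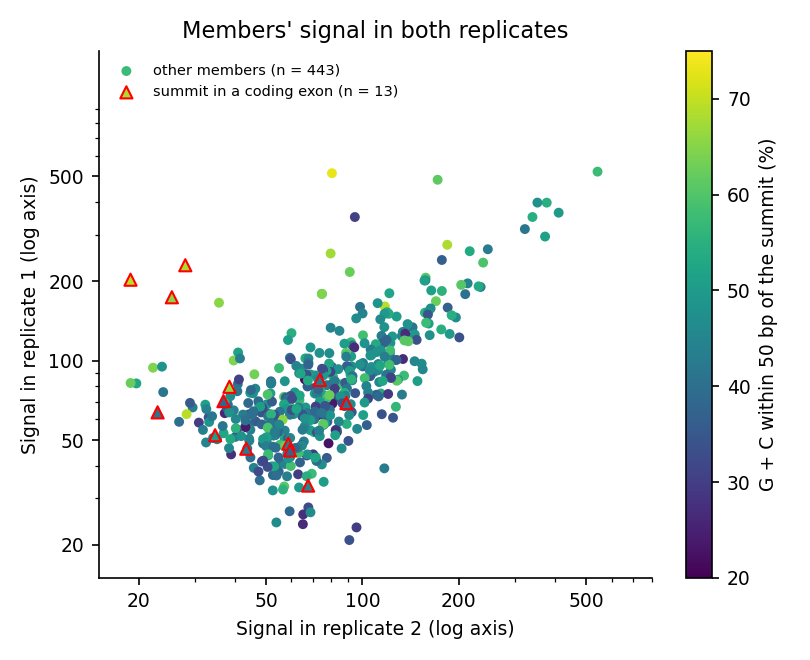
Signal of the 456 members with a peak in both full lists, in replicate 2 (x axis, log scale) and replicate 1 (y axis, log scale), coloured by G + C within 50 bp of the summit (%). Triangles are the 13 members with a summit in a coding exon, several of which lie high in replicate 1 and low in replicate 2.

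Small RNA genes lay beside some strong members, so that a summit there need not belong to the protein-coding gene. Within 200 bp of the summit was a tRNA gene for 6 members (3 found in both), a snoRNA gene for 14 (10 found in both) and an snRNA gene for 9 (8 found in both). The snRNA neighbours included the members of H41C03.3 (ranks 10 and 721) and egg-5 (ranks 17 and 255), and those of cox-6A (rank 339) and of snr-4, an Sm protein gene (rank 383). Near the endogenous ceh-8 gene, within 20000 bp, lay the members of sre-23 (rank 617) and col-63 (rank 1114).

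By gene group, ribosomal protein genes and genes of the respiratory chain carried members most often among lists of over 6 genes. Over all 17242 autosomal protein-coding genes 2.72% had a member. Of 76 cytoplasmic ribosomal protein genes 11 had one (14.5%, exact 95% interval 7.45 to 24.4%), and 9 of these were found in both replicates. They were rpl-3, rpl-35, rps-28 (rank 125), rps-24 (rank 200), rpl-41.2, rpl-24.2, rps-4, rpl-29, rpl-37, rpl-23 and rpl-6, with a median distance of 304 bp. The members of rpl-23 (rank 1608) and rpl-6 (rank 1657) were those not found in both. These lists were picked with earlier results in view, so their shares describe them and were not tested.

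Of 28 genes for subunits of complex I, complex IV and ATP synthase, 4 had a member (14.3%, 4.03 to 32.7%). These were cox-5A (rank 20), cox-5B (rank 232), cox-6A (rank 339) and nuo-2 (rank 440), and all 4 were found in both. Of 66 mitochondrial ribosomal protein genes 5 had one (7.58%), led by mrpl-28 (rank 157) and mrps-35 (rank 459). Of 39 translation factor genes 3 had one, with eif-3.C (rank 106) and eif-3.B (rank 111), both subunits of initiation factor eIF3, found in both. Of 54 heat shock genes 3 had one, with hsp-1, the constitutive Hsp70 (rank 87), and dnj-9 (rank 133) found in both. Among 70 RNA polymerase and general factor genes the first of 3 was rpb-11 (rank 152). Among 33 proteasome genes the only one was rpn-11 (rank 340), and among 17 vacuolar ATPase genes vha-9. Of 40 genes for snRNP proteins and splicing factors 3 had one, led by snr-4 (rank 383) and snrp-3 (rank 479).

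Of 1225 chemoreceptor genes 22 had a member (1.80%, 1.13 to 2.71%), with 13 found in both. The strongest were str-96 (rank 276), str-84 (rank 318), srw-102 (rank 357) and sra-17 (rank 422). Of 247 nuclear hormone receptor genes 3 had one, of 147 collagen genes 2 and of 76 histone genes 1 (his-37, rank 82). Of 70 homeobox genes 2 had one, ceh-23 (rank 1086) and ceh-58 (rank 1482). None of 70 neuropeptide genes had one, which allows a share of up to 4.29% (3 genes) or, by the exact 95% interval drawn in the plot of gene lists, 5.13%. None of 32 tRNA synthetase genes had one, which allows up to 9.38% (3 genes) or 10.9%. Of 37 insulin-like peptide genes the only one was ins-21. Of 26 pan-neuronal genes 2 had one, rgef-1 (rank 1571) and egl-21 (rank 1890), and neither was found in both.

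Of the 6 RIA interneuron genes 2 had a member. The one of glr-3, an ionotropic glutamate receptor subunit gene used as an RIA marker, was found in both, at 85.9 in replicate 1 (rank 658) and 72.8 in replicate 2 (rank 690). The one of ttx-7 (rank 1764) lay in a coding exon and was not found in both. In all, 69 of the 469 genes were in any of the 19 lists, and 140 carry a systematic name only.

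**Figure D4:**
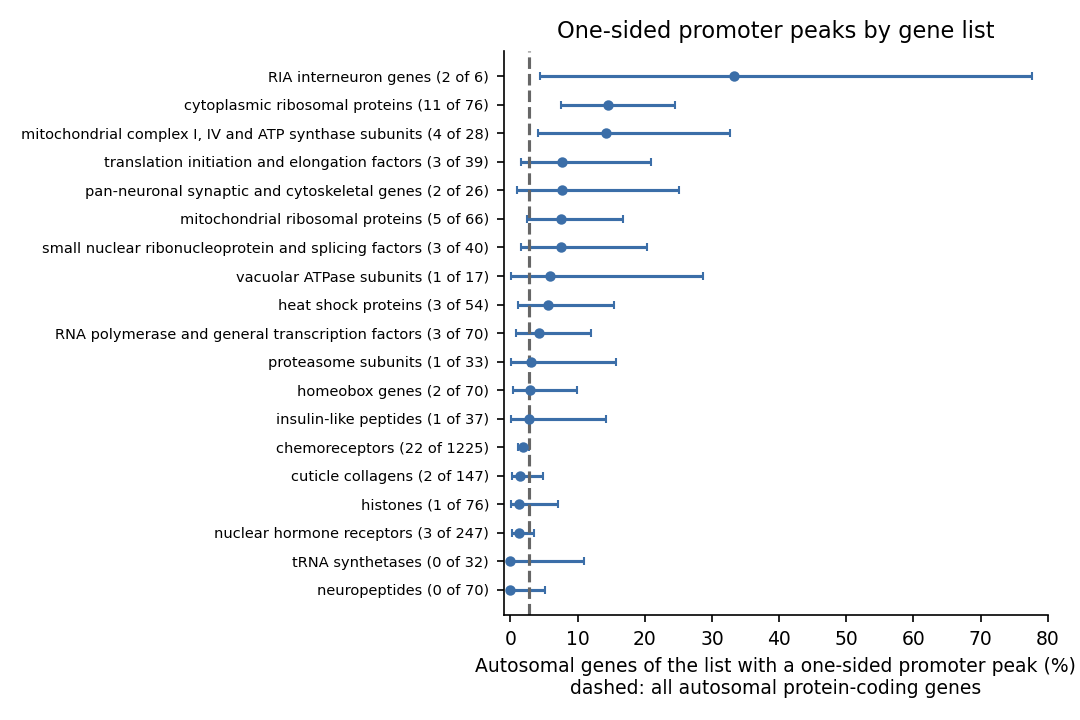
Share of autosomal genes of each list that had a member (x axis, %), with the count of genes and the exact 95% binomial interval, and a dashed line at the 2.72% of all autosomal protein-coding genes. Ribosomal protein genes stand at 14.5%, subunits of complex I, IV and ATP synthase at 14.3%, and the RIA list rests on 2 of 6 genes.

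At members' summits 3 words were more frequent than in the flanks and 2 less frequent. The same 5 passed in the same directions over the whole IDR list. There TAATTG, the pair of TAAT words 3 bases apart, CACGTG and TGATAA passed too, which they did not in members. For 2 of these the ratio of summits to flanks was alike in members and over the larger list. It was 3.25 and 3.14 for CACGTG, and 0.561 and 0.551 for TGATAA. Neither passed Fisher's exact test of members against the other IDR peaks (odds ratios 0.963 and 1.10). For each of 12 words, on either strand, members with the word within 50 bp of the summit were counted. So were those with it in a pair of flanks, together as long as the summit window, whose centres lie 250 bp away on either side. For the 210 members within 250 bp of the start, the downstream flank was centred at or past the gene start. Being split, the flanks also offer slightly fewer positions for a word than the summit window. Members with a word in only one of these places were compared by an exact two-sided binomial test, adjusted over the 12 words. Each share is also given for the windows of the same length, centred 280 bp upstream, of all 17242 autosomal genes. Summits were richer in G + C (median 44.6%) than the flanks (34.7%) and those windows (33.7%), and its part in the counts of words was not tested.

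GAGAGA, the core of sites for GAGA-type factors in Drosophila, was at 97 member summits (20.4%), against 34 flanks (7.16%; exact adjusted p = 5.00e-08) and 5.85% of all promoter windows. Over all 1891 IDR peaks, members included, it was at 21.6% of summits and in 7.83% of flanks, and over divergent promoter peaks at 16.3% and in 3.86%. Members did not pass a test of difference from the other IDR peaks, with an odds ratio of 1.06 (exact adjusted p = 0.98). CCGCCC was at 31 summits (6.53%), against 7 flanks (1.47%; exact adjusted p = 2.78e-04) and 2.10% of windows, and at 5.98% of all IDR summits. CAGCTG, an E-box, was at 21 summits (4.42%), against 7 flanks (1.47%; exact adjusted p = 0.022) and 1.77% of windows, and at 3.91% of all IDR summits. Among members found in both replicates the ratio of summits to flanks for CAGCTG was 2.75 (exact adjusted p = 0.20). The call was lost under 6 alternatives, and over all those run its exact adjusted p lay between 0.0037 and 0.60. CACGTG, another E-box, was at 13 summits and 4 flanks (exact adjusted p = 0.084). Over all IDR peaks it was at 3.65% of summits and in 1.16% of flanks, and passed (exact adjusted p = 1.03e-06). Among members found in both replicates its ratio of summits to flanks was 11 (exact adjusted p = 0.015), and with flanks centred 500 bp away it was 1.08 (exact adjusted p = 1). TGACTCA was at 8 summits and 3 flanks (exact adjusted p = 0.34).

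Both words with a lower count at summits that passed are rich in A + T. TTTTTTT was at 40 summits (8.42%), against 84 flanks (17.7%; exact adjusted p = 1.98e-04) and 23.5% of windows, and at 8.04% of all IDR summits. TATAAA was at 29 summits (6.11%), against 62 flanks (13.1%; exact adjusted p = 9.52e-04) and 12.6% of windows. The call for TATAAA was lost in the stronger 50% of IDR peaks (exact adjusted p = 0.055) and in replicate 2 by itself (exact adjusted p = 0.051). TGATAA was at 23 summits and 41 flanks (exact adjusted p = 0.066). It passed with promoters of 500 bp (exact adjusted p = 0.0042), of 2000 bp (exact adjusted p = 0.0019) and among the stronger 50% (exact adjusted p = 0.027). Over all IDR peaks TGATAA was at 4.87% of summits and in 8.83% of flanks, and passed (exact adjusted p = 2.81e-06). TAATTA was at 27 summits (5.68%), against 24 flanks (5.05%; exact adjusted p = 0.78) and 6.01% of windows. TAATTG was at 48 summits (10.1%), against 53 flanks (11.2%; exact adjusted p = 0.72) and 9.04% of windows. Over all IDR peaks TAATTG was at 11.6% of summits and in 7.88% of flanks, and passed (exact adjusted p = 1.25e-04). TAATTA was there at 6.93% and in 5.66%, and did not pass (exact adjusted p = 0.13). Of the members with TAATTG in one place only, 46.9% had it at the summit (exact 95% interval 35.7 to 58.3%). For TAATTA that share was 53.1% (38.3 to 67.5%).

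TAAT and its reverse complement 3 bases apart, which can contain TAATTA or TAATTG, was at 7 summits and 3 flanks (exact adjusted p = 0.46), and in 0.557% of all windows. The 7 stood in front of Y73B6BL.29 (rank 57), D1069.3 (rank 197), clc-31 (rank 254), nhr-57 (rank 916), srsx-26 (rank 924), ceh-23 (rank 1086) and lin-45, the Raf kinase gene (rank 1631). The D1069.3 member had 151 in replicate 1 (rank 186) and 100.1 in replicate 2 (rank 344), so it was strong in both. The same pair 2 bases apart was at 6 summits and 3 flanks (exact adjusted p = 0.61). Over all IDR peaks the pair 3 bases apart was at 34 summits and 5 flanks, and passed (exact adjusted p = 4.17e-06).

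For TAATTG the members differed from the other IDR peaks in a comparison chosen after the values were seen. Among the 475 members, 38 had it only at the summit and 43 only in the flanks. Among the other 1416 IDR peaks, X included, the numbers were 157 and 81. The shares differed more in the flanks than at the summits. TAATTG was at the summit of 10.1% of members and 12.1% of the other peaks, and in the flanks of 11.2% and 6.78%. The odds ratio was 0.456 (Fisher's exact two-sided test, adjusted over 12 words, p = 0.042), and the call was lost under 6 of 12 alternatives, with odds ratios between 0.368 and 0.599. Among divergent promoter peaks, which are part of those 1416, the numbers were 11 and 13. For the pair of TAAT words 3 bases apart the members had 7 and 3, and the other peaks 27 and 2 (odds ratio 0.173, exact adjusted p = 0.43).

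Neither of the 2 words tested for strand passed the test for a preferred one in members. GAGAGA was on the coding strand at 38 summits and on the template strand at 54, a coding share of 41.3% (exact 95% interval 31.1 to 52.1%, exact adjusted p = 0.23). Over all promoter windows the coding share was 36.3%, which lies inside that interval. The members' share passed with promoters of 2000 bp (37.8%, exact adjusted p = 0.026) and in the members drawn from replicate 2 by itself (34.7%, exact adjusted p = 0.021). TTTTTTT was on the coding strand at 22 and on the template strand at 15 (59.5%, exact adjusted p = 0.32), where the windows had 56.5%.

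By chromosome, members were spread much as one-sided promoter sequence is, with fewer on V. Chromosome V held 109 members (22.9%), against 29.0% of the sequence, and chromosome I held 95 members on 16.6% of the sequence. Per megabase of such sequence there were 40.1 members on I, 35.0 on II, 37.9 on III, 32.2 on IV and 26.3 on V. On V 57.8% of members were found in both replicates, and on the other 4 autosomes between 63.4 and 73.9%. No test was made of these shares.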

How the data were processed

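Peak lists came from anti-GFP chromatin immunoprecipitation in 2 biological replicates of 1 group. Each replicate's alignment and a control alignment gave 1 list, both replicates a pooled list, and these the optimal IDR list, per the file headers. Peaks were ranked within a list by the authors' deposited signal. The deposited −log10 q-values were not used. The sources used here do not give the peak caller, aligner or IDR threshold, and read depth is unknown. The IDR peaks were the 1891 strongest of the 30000 pooled peaks, and each replicate list also held 30000.

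The files name ce11. Gene models were those of Ensembl release 115 and the sequence that of RefSeq, both of WBcel235, the same assembly. The outermost annotated start of a gene was taken as its start. Pseudogenes and piRNA genes were not counted when summits were placed inside or outside genes. Coordinates count from 1.

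Python 3.11.15, numpy 2.4.6, scipy 1.17.1, pandas 2.3.3 and matplotlib 3.10.9 were used. Fisher's exact and exact binomial tests had Benjamini-Hochberg adjustment and a threshold of 0.05. P-values and intervals take each peak as an independent count and allow for counting error alone. The steps were tested on simulated data. Genes named are those of the 20 strongest members and up to 4 strongest members of each list, and others where a sentence gives a whole small set. Alternatives were other promoter lengths, gene starts, list thresholds, shared distances, motif windows and flanks, each replicate alone, and leaving out peaks near small RNA genes or ceh-8. The members and lists were chosen with earlier results of these data known. The comparison of TAATTG with other peaks and the alternative without coding-exon summits were chosen after seeing these values.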

Additional observations from a re-analysis of the deposited data

How the results depend on the processing

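The number of members was 273 among the stronger 50% of IDR peaks and at most 564. The share within 250 bp was 61.9% with promoters of 500 bp and 30.5% with 2000 bp, since that length bounds the distances. With 2000 bp, the odds ratio for being found in both was 1.14 against intronic peaks, and that for the 472 strongest peaks was 0.638 against divergent (exact adjusted p = 0.0090), 1.28 against intronic and 1.46 against distal peaks. From 1 replicate alone that odds ratio ran between 1.29 (replicate 1) and 2.47 (replicate 2) against intronic and between 1.24 and 2.01 against distal peaks. The number of words rarer at summits was 1 in replicate 2 alone. The coding share of GAGAGA passed at 37.8% (2000 bp; exact adjusted p = 0.026) and at 34.7% (replicate 2 alone; exact adjusted p = 0.021), with 40.9% in replicate 1 alone. The odds ratio for TAATTG did not pass at 0.541 (500 bp), 0.520 (2000 bp), 0.368 (stronger 50%), 0.485 (replicate 1 alone), 0.494 (replicate 2 alone) and 0.599 (flanks centred 500 bp away). No result that passed its test turned direction. Of those that did not pass, the odds ratio of the strongest peaks against divergent ones was 1.05 with 500 bp, the ratio of summits to flanks for TAATTA 0.875 with 500 bp, and that for TAATTG 1.09 with flanks centred 500 bp away. Of the main results' values, 110 kept their side of the threshold or stayed near their value, 11 lost a call, 3 gained one and 4 moved. For single words, 8 lost a call and 7 gained one. No paired analysis was possible because both samples form 1 group. Read depth is unknown, so a member missing from 1 replicate may lie below what that replicate could detect.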

Other observations

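Of the genes with members, 6 had 2: F38E11.9, H41C03.3, Y66A7A.4, eel-1, egg-5 and gsa-1. The 2 summits of each lay 200 to 210 bp apart. The smallest spacing of summits in the IDR list and in the pooled list was 199 bp, and 12 of the 16 IDR spacings under 250 bp were of 200 to 210 bp. Of the 475 members, 418 were exactly 350 bp wide, and the 100 strongest had a median width of 256.5 bp.

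Over the windows centred 280 bp upstream of all 17242 autosomal genes, GAGAGA was on the coding strand in 359 and on the template strand in 631.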
